A study of Mus musculus with 17 samples.

Results

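The embryonic and adult globin genes were described across 6 groups of mouse fetal liver cells whose RNA was sequenced. The members were chosen by gene symbol: 7 of the 8 genes of the rule were found among the 47069 genes of the table of the Arid3a experiment, and the same Ensembl identifiers were then read in the other tables. The 7 genes are the adult alpha globins Hba-a1 and Hba-a2, the embryonic alpha-like globin Hba-x, the adult beta globins Hbb-bs and Hbb-bt, and the embryonic beta-like globins Hbb-y and Hbb-bh1. The remaining gene of the rule was not analysed here.

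The cells came from fetal liver at E12.5 to E13.5 of a mouse line that carries Cas9 and EGFP behind the CAG promoter at the Rosa26 locus. Every group shared this background. In 5 groups the cells also carried sgGata1, a guide RNA against the transcription factor gene Gata1, and are named Gata1s, for the short form of that factor. Of these, LUC (luciferase, 3 libraries) and Arid3a (an Arid3a transgene, 3 libraries) had doxycycline at 1 µg/mL for 48 h. The groups sh-ctrl (control hairpin, 3 libraries), shArid3a (hairpin against Arid3a, 2 libraries, replicates 1 and 3) and miR-125b (microRNA, 3 libraries) had the same dose for 10 days. The WT group (3 libraries) carried sgLuc and shLuc, both against luciferase, and no doxycycline was listed for it. shArid3a library 2 was not analysed here. The sources used here do not give the promoter of the transgenes, whether the Gata1s cells were one clone or a mixture of edited cells, or whether replicates were separate cultures, so p-values measure only the spread between these libraries, which may be technical.

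Haemoglobin is a tetramer of alpha-like and beta-like globin chains, each holding a haem group. In the mouse, the first wave of red cells from the yolk sac makes the embryonic chains zeta (Hba-x), epsilon-y (Hbb-y) and beta-h1 (Hbb-bh1), while definitive red cells made in the fetal liver use the adult alpha and beta chains. The alpha-like genes lie together on one chromosome and the beta-like genes on another, each cluster under a distant group of enhancers, and GATA1 is one of the factors that binds them.

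The pairs of adult genes are near-identical copies, which bears on every count below, so the end of each coding sequence is printed here. Hba-x (32276400 to 32278116), Hba-a1 (32283511 to 32284465) and Hba-a2 (32296489 to 32297298) lie on the plus strand of chromosome 11 (GRCm38). Hbb-bt (103812524 to 103813996), Hbb-bs (103826534 to 103828096), Hbb-bh1 (103841636 to 103843164) and Hbb-y (103851745 to 103853240) lie on the minus strand of chromosome 7. All 7 are annotated as protein-coding. The last 90 coding bases, which are exonic and include the stop codon, are given 5′ to 3′ from the GENCODE transcripts, with capitals where a gene differs from the first adult copy of its family.
Hba-a1, chr11:32284302-32284391: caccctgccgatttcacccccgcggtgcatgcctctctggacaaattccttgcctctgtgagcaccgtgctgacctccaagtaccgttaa
Hba-a2, chr11:32297119-32297208: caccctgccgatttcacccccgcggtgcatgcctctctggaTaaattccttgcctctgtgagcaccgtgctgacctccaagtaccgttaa
Hba-x, chr11:32277919-32278008: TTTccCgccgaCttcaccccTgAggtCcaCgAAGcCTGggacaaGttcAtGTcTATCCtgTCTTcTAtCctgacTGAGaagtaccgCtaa
Hbb-bs, chr7:103826665-103826754: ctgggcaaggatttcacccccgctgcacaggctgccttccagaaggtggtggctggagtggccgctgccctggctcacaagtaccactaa
Hbb-bt, chr7:103812656-103812745: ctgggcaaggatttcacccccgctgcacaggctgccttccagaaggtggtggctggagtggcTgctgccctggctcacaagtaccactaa
Hbb-y, chr7:103851874-103851963: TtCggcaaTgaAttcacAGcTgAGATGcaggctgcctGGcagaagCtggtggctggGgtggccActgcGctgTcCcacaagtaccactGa
Hbb-bh1, chr7:103841752-103841841: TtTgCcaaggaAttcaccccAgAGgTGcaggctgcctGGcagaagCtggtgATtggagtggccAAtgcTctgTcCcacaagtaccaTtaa

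Over whole coding sequences, Hba-a1 and Hba-a2 differed at 1 of 429 bases (C381T, with Hba-a1 first and positions counted from the first base of the start codon). Hbb-bs and Hbb-bt differed at 1 of 444 bases (C417T, Hbb-bs first). The embryonic genes stood further away: Hbb-y had 74.3% and Hbb-bh1 74.1% of bases equal to Hbb-bs, and Hba-x had 62.0% equal to Hba-a1. Of all windows of 100 bases along the transcript, 56.5% in Hba-a1 and 74.5% in Hba-a2 occurred unchanged in the other alpha copy. The shares were 62.6% in Hbb-bs and 54.8% in Hbb-bt for the other beta copy. They were 0% in Hba-x, Hbb-y and Hbb-bh1. How reads that match both copies were assigned is not given in the sources used here, so the split between Hba-a1 and Hba-a2, and between Hbb-bs and Hbb-bt, is uncertain, while the 3 embryonic genes are free of such windows.

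In front of the RefSeq start the alpha pair and the beta pair differ in how alike the copies are. Upstream sequence from RefSeq (GRCm38.p6) was found for 6 of the 7 genes. The RefSeq start can differ from the end of the gene span given above. The windows printed below for Hba-a1 and Hbb-bs lie inside those spans, and that for Hbb-bt overlaps its span. The alpha copies were equal at 247 of 247 aligned promoter bases, whereas Hbb-bs and Hbb-bt were equal at 127 of 249 (51.0%). The 30 bases around the CACCC motif, the letters bound by KLF1 in red cells, are printed 5′ to 3′ on the strand of the gene for the genes discussed most below, with CACCC and CCAAT, or their reverse complements, in capitals.
Hba-a1, chr11:32283602-32283631: agggcgtgtcCACCCtgcctggaggacacg
Hbb-bs, chr7:103827999-103828028: cgtagagccaCACCCtggtaagggCCAATc
Hbb-bt, chr7:103813993-103814022: tgcagggtaaCACCCtggcATTGGCCAATc
Hbb-y, chr7:103853298-103853327: acctggctcCACCCatgaggaccacgggtc
A search of both strands of the 120 bases before the start found CACCC in each of the 6 promoters, and in 31.7% of all 32851 RefSeq promoters. CCAAT was found in all but Hba-x, against 21.3% of all promoters, and TATAA in all but Hbb-y, against 11.9%. GATAA, a form of the motif bound by GATA factors, was found only in Hba-x among the 6, against 10.5% of all promoters. These are matches of letters and say nothing about binding.

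Total counts per library ran from 31339238 to 38678649 in the table of LUC and the libraries labelled Arid3a, 31992089 to 40859301 in the table of sh-ctrl, shArid3a and miR-125b, and 16362439 to 19212193 in the WT table. Arid3a itself was at 67.1 ± 3.09 CPM (counts scaled by the size of the library) in LUC and 70.9 ± 11.3 in the libraries labelled Arid3a (SD, n = 3 each), a difference within the spread (edgeR adjusted p = 0.737). These are therefore called the libraries labelled Arid3a, and no direction found in them can be read as that of a raised Arid3a level. In sh-ctrl Arid3a was at 52.9 ± 6.70 CPM (SD, n = 3), and it fell to 19.7 ± 1.03 in shArid3a (SD, n = 2, edgeR adjusted p = 0.0368) and to 8.97 ± 1.60 in miR-125b (SD, n = 3, edgeR adjusted p = 0.000282). Of markers that check the cell source, 12 megakaryocyte genes summed to 2982 to 5198 CPM in the Gata1s libraries and to 1509 to 1707 in WT. The red cell genes Alas2, the erythroid enzyme that starts haem synthesis, and Slc4a1, the anion exchanger of the red cell membrane, were at most 0.771 and 0.244 CPM in all 17 libraries. The hepatocyte gene Alb was at most 0.155 CPM.

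Globin RNA was scarce in every library. The 7 genes together took 0.00487% to 0.0511% of counts, lowest in LUC and highest in sh-ctrl. In bulk RNA, fewer cells of a type and less RNA per cell cannot be told apart. On a scale comparable between genes, CPM per kilobase of annotated exon, the order in sh-ctrl was Hbb-bs (255 ± 123), Hba-a1 (124 ± 41.3), Hbb-bt (27.3 ± 9.72), Hba-a2 (4.77 ± 1.38), Hbb-y (3.07 ± 1.31), Hbb-bh1 (2.59 ± 1.33) and Hba-x (0.0296 ± 0.0512), each as SD with n = 3. The first adult copy of each family thus led, and the embryonic genes lay at the level of the minor alpha copy or below it. Levels in the following 3 paragraphs are CPM of the library total, set side by side over tables that were scaled separately, with no test across tables.

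**Figure D1:**
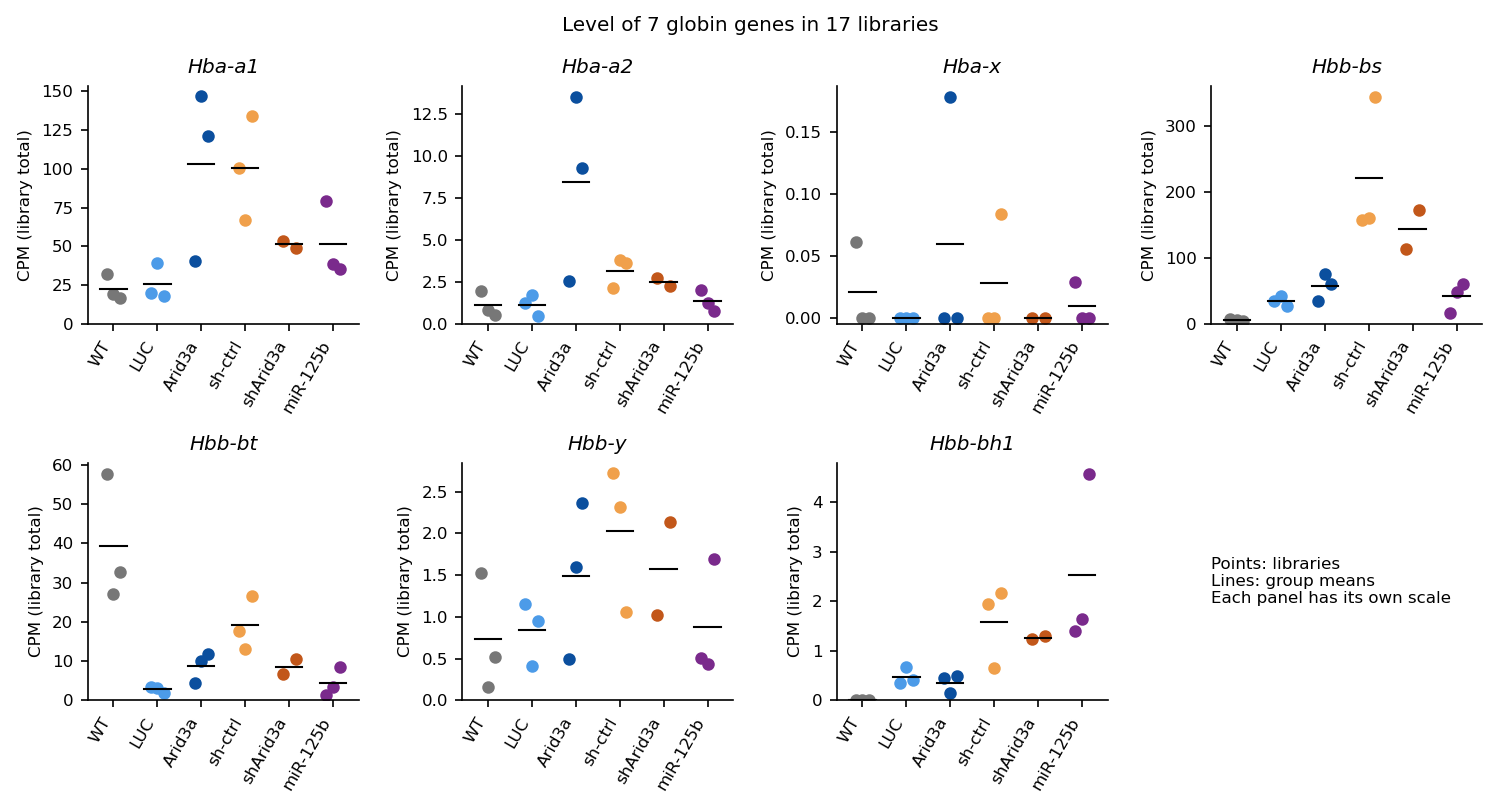
Each panel plots 1 globin gene in CPM of the library total (vertical axis, its own scale from 0) for the 6 groups, with a point per library and a line at the group mean. In the Gata1s groups Hba-a1 and Hbb-bs carry most of the globin RNA, Hbb-bt stands highest in WT, and Hba-x is near 0 throughout.

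Hba-a1, the main adult alpha gene, was highest in the libraries labelled Arid3a at 103 ± 55.3 CPM and in sh-ctrl at 101 ± 33.5 (SD, n = 3 each), and these groups overlapped. It followed in shArid3a at 51.3 ± 2.97 (SD, n = 2), in miR-125b at 51.2 ± 24.5, in LUC at 25.8 ± 11.6 and in WT at 22.6 ± 8.20 (SD, n = 3 each). The only neighbours in this order whose libraries did not overlap were sh-ctrl and shArid3a. Hba-a2, its copy, had the same order of groups at far lower values, from 8.45 ± 5.54 CPM in the libraries labelled Arid3a to 1.11 ± 0.751 in WT (SD, n = 3 each). Only shArid3a and miR-125b were neighbours without overlap for Hba-a2.

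Hbb-bs, the more abundant adult beta gene in the Gata1s groups, was highest in sh-ctrl at 220 ± 107 CPM (SD, n = 3) and in shArid3a at 143 ± 41.8 (SD, n = 2). The libraries labelled Arid3a were at 57.0 ± 20.4, miR-125b at 41.7 ± 23.1, LUC at 34.5 ± 8.07 and WT at 6.03 ± 1.27 (SD, n = 3 each). Libraries did not overlap between shArid3a and the libraries labelled Arid3a, or between LUC and WT, the lowest group. Hbb-bt, its copy, had another order. WT was highest at 39.3 ± 16.3 CPM, above sh-ctrl at 19.2 ± 6.83 (SD, n = 3 each), with no overlap. Below sh-ctrl, and again apart from it, lay the libraries labelled Arid3a (8.77 ± 3.97), shArid3a (8.57 ± 2.64), miR-125b (4.46 ± 3.69) and LUC (2.86 ± 0.832), which overlapped from one to the next. These are SD with n = 3, and n = 2 for shArid3a.

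The embryonic genes were covered by few reads. Hbb-y had 3 to 91 counts, and its mean ran from 2.03 ± 0.869 CPM in sh-ctrl to 0.736 ± 0.709 in WT (SD, n = 3 each), with overlap at every step of the order. Hbb-bh1 was highest in miR-125b at 2.54 ± 1.77 CPM, followed by sh-ctrl at 1.59 ± 0.815 (SD, n = 3 each) and shArid3a at 1.26 ± 0.0459 (SD, n = 2). It was lower in LUC at 0.478 ± 0.172 and in the libraries labelled Arid3a at 0.359 ± 0.184 (SD, n = 3 each). LUC lay below shArid3a and miR-125b without overlap, but its highest library (0.672) lay above the lowest of sh-ctrl (0.656). The libraries labelled Arid3a lay below sh-ctrl, shArid3a and miR-125b without overlap. For Hbb-bh1, LUC and the libraries labelled Arid3a overlapped each other. In WT Hbb-bh1 had 0 counts in all 3 libraries, which allows up to 0.183, 0.160 and 0.156 CPM. Hba-x was at 0 in 13 of 17 libraries. It had 6 counts in replicate 2 of the libraries labelled Arid3a, 3 in sh-ctrl replicate 3, and 1 each in miR-125b replicate 1 and WT replicate 1. At this depth no difference in Hba-x could be detected, and it did not pass the filter on low counts for the tests.

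The first question was what changed with the Arid3a transgene over 48 h, in the libraries so labelled against LUC. In this and the following tests, values are CPM after TMM scaling (trimmed mean of M-values), and a gene is called at an edgeR quasi-likelihood p adjusted over all genes tested under 0.05. None of the 6 globin genes tested was called, against 0% of 13495 genes. At an unadjusted p under 0.05 there were 4 of 6 globin genes and 2885 of all genes. DESeq2 called 3 globin genes (10.1% of the genes fitted) and gave no adjusted p for Hbb-y and Hbb-bh1. The libraries did not overlap for 3 globin genes, as for 27.6% of all genes. The median log2 difference over the 6 genes was 1.18, beside 0.01 over all genes.

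Hba-a1 was at 40.3, 145 and 119 CPM in the libraries labelled Arid3a and at 20.3, 39.8 and 18.4 in LUC. Replicate 1 of the libraries labelled Arid3a lay just above the highest LUC library, and replicates 2 and 3 lay far above it. The log2 difference was 1.95 (SE 0.50, edgeR adjusted p = 0.102). Hba-a2 was at 2.51, 13.4 and 9.09 CPM against 1.26, 1.76 and 0.451, with a log2 difference of 2.83 (SE 0.70, edgeR adjusted p = 0.0977). Hbb-bt was at 4.27, 9.99 and 11.7 CPM against 3.52, 3.26 and 1.93, with a log2 difference of 1.57 (SE 0.41, edgeR adjusted p = 0.104). In both genes replicate 1 was again the lowest of its group and nearest to LUC.

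Hbb-bs was at 34.5, 74.4 and 59.8 CPM against 34.5, 43.6 and 26.9 in LUC, so the groups overlapped, and the log2 difference was 0.68 (SE 0.29, edgeR adjusted p = 0.229). The embryonic genes overlapped as well. Hbb-y was at 0.496, 1.59 and 2.31 CPM against 1.17, 0.421 and 0.966, a log2 difference of 0.78 (SE 0.62, edgeR adjusted p = 0.502). Hbb-bh1 was at 0.441, 0.147 and 0.474 CPM against 0.352, 0.684 and 0.418, a log2 difference of −0.45 (SE 0.55, edgeR adjusted p = 0.669). It was the only one of the 6 genes with a negative sign.

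The adult result turned with the tool, as given above for DESeq2, and with 1 library. Without replicate 1 of the libraries labelled Arid3a, Hba-a1, Hba-a2, Hbb-bs and Hbb-bt were all called (4 of 6, against 23.2% of all genes), with log2 differences of 2.34, 3.26, 0.94 and 1.90 (highest edgeR adjusted p = 0.00422). Cell type markers were tested only in the fit of all libraries. That fit called 0% of 13495 genes, so the lack of marker calls says nothing about cell types. The 8 erythroid markers summed to 347 to 411 CPM in the libraries labelled Arid3a and 466 to 517 in LUC, with no overlap. Most of this was Car2, at 296 to 339 against 383 to 427. Of the 8 markers, 1 was at or under 3 counts in each library of either group. Endothelial markers (5 genes) summed to 172 to 192 against 147 to 150, also apart, and were mostly Pecam1 (169 to 183 against 144 to 148). Mast cell and basophil markers (8 genes) summed to 432 to 1025 against 401 to 540, with overlap, mostly Gata2 (372 to 821 against 358 to 472). Neutrophil and monocyte precursor markers (9 genes) summed to 6.88 to 11.9 against 5.61 to 111, also with overlap. The erythroid, endothelial and mast cell sums thus mainly follow 1 gene each and do not measure a cell type. The part of cell types in the globin values was not tested.

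Lowering of Arid3a by a hairpin over 10 days of doxycycline was read from shArid3a against sh-ctrl. None of the 6 globin genes tested was called by edgeR, against 0.0857% of 14004 genes, and none had an unadjusted p under 0.05, against 3616 of all genes. DESeq2 also called none of them, against 1600 of the 14004 genes fitted. All 6 had a negative sign, with a median log2 difference of −0.28 beside −0.02 over all genes. The libraries did not overlap for 2 of them, Hba-a1 and Hbb-bt, as for 43.9% of all genes.

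Hba-a1 was at 54.1 and 53.6 CPM in shArid3a and at 94.9, 63.1 and 118 in sh-ctrl, and both hairpin libraries lay below all controls. The log2 difference was −0.77 (SE 0.37, edgeR adjusted p = 0.218), and with no filter on low counts Hba-a1 was called (−0.78, edgeR adjusted p = 0.0297), at 1 globin gene against 5.7% of all genes. Hbb-bt was at 6.79 and 11.4 CPM against 16.7, 12.4 and 23.4, a log2 difference of −0.95 (SE 0.58, edgeR adjusted p = 0.326). Hbb-bs, by contrast, overlapped, at 116 and 189 CPM against 148, 150 and 302, and its log2 difference of −0.40 (SE 0.47, edgeR adjusted p = 0.620) went to 0.01 without sh-ctrl replicate 3. Hba-a2, Hbb-y and Hbb-bh1 overlapped too, with log2 differences of −0.16, −0.17 and −0.13 and edgeR adjusted p-values of 0.857, 0.900 and 0.920. Intervals were wide: for Hbb-bs the approximate 95% interval of the log2 difference ran from −1.32 to 0.53. No cell type marker was called in shArid3a, where only 0.0857% of all genes were called. Endothelial markers summed to 126 to 131 CPM of the library total against 144 to 157 in sh-ctrl, mostly Pecam1 (124 to 130 against 143 to 156). Megakaryocyte markers summed to 3334 to 3362 against 3511 to 5198, and both sums were apart. Erythroid markers, mostly Car2 (410 to 468 against 331 to 510), overlapped at 570 to 573 against 433 to 665. Their median log2 difference was 0.55 over 6 tested. The part of these markers in the globin values was not tested.

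Under miR-125b, also with 10 days of doxycycline and read against sh-ctrl, the adult beta genes fell. Hbb-bs and Hbb-bt were called lower, 2 of 6 globin genes tested. Of all 14004 genes, 24.4% were called and 12.2% were called lower, so calls were common in this comparison. The median log2 difference of the 6 genes was −1.03, beside −0.03 over all genes. Libraries of the groups did not overlap for the same 2 genes, as for 44.9% of all genes.

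Hbb-bs was at 17.7, 49.4 and 62.3 CPM in miR-125b and at 148, 150 and 302 in sh-ctrl. Every miR-125b library lay below every control, with replicate 1 the lowest. Its log2 change was −2.21 (SE 0.44, edgeR adjusted p = 0.0103), and Hbb-bs stayed called in all 15 alternatives, in which its adjusted p reached at most 0.0422. Hbb-bt was at 1.66, 3.32 and 8.87 CPM against 16.7, 12.4 and 23.4, so that it fell by 1.92 on the log2 scale (SE 0.52, edgeR adjusted p = 0.0267). Its call was lost without sh-ctrl replicate 3 (−1.66, edgeR adjusted p = 0.0974) and without miR-125b replicate 2 (−1.74, edgeR adjusted p = 0.0768), the only losses in 15 alternatives.

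The alpha genes did not pass the test. Hba-a1 was at 88.7, 39.1 and 36.6 CPM in miR-125b against 94.9, 63.1 and 118 in sh-ctrl, so replicate 1 lay within the control range and the other replicates lay below it. Its log2 difference was −0.75 (SE 0.33, edgeR adjusted p = 0.116), and with replicate number as a block it was −0.79 and called (edgeR adjusted p = 0.0430), which made 3 globin genes called, against 26.3% of all genes. With no filter on low counts Hba-a1 was called as well (−0.75, edgeR adjusted p = 0.00500), again 3 globin genes, against 18.4% of all genes. Hba-a2 was at 2.26, 1.23 and 0.809 CPM against 2.0, 3.57 and 3.17, a log2 difference of −1.03 (SE 0.43, edgeR adjusted p = 0.105). Without miR-125b replicate 1, all 4 adult genes were called, against 12.7% of all genes, at −1.28 for Hba-a1 and −1.52 for Hba-a2 (edgeR adjusted p = 0.0152 and 0.0459).

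The embryonic beta-like genes had opposite signs in miR-125b, and neither passed the test. Hbb-y was at 0.573, 0.436 and 1.74 CPM against 2.57, 2.17 and 0.928 in sh-ctrl, with overlap, a log2 difference of −1.03 (SE 0.62, edgeR adjusted p = 0.243). Hbb-bh1 was at 1.56, 1.66 and 4.73 CPM against 1.84, 0.615 and 1.90, with overlap, a log2 difference of 0.87 (SE 0.55, edgeR adjusted p = 0.270). Replicate 3 of miR-125b was the highest of its group in both genes. Summed over the adult genes, miR-125b was at 110, 93.0 and 109 CPM against 262, 229 and 447, and summed over the embryonic genes at 2.17, 2.10 and 6.47 against 4.41, 2.78 and 2.91. The adult sums were thus apart and the embryonic sums were not.

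Some cell type markers were called in miR-125b, where 24.4% of all genes were called and 12.2% called lower. Of 12 megakaryocyte markers 5 were called lower and 1 higher (median log2 difference −0.48), with summed levels of 2982 to 3746 CPM against 3511 to 5198. The sums were 79.9 to 146 against 50.5 to 111 for neutrophil and monocyte precursor markers (2 of 6 tested called higher), 255 to 462 against 196 to 388 for mast cell and basophil markers (2 of 8 called higher) and 366 to 444 against 433 to 665 for erythroid markers (1 of 6 tested called lower). Hepatocyte markers summed to 3.92 to 5.65 against 0.813 to 1.44, with 2 of 2 tested called higher and Alb at 0 in all miR-125b libraries. Macrophage markers summed to at most 1.37 CPM in either group, and endothelial markers to 97.4 to 121 against 144 to 157, with none called. The endothelial sums were mostly Pecam1 (97.3 to 120 against 143 to 156). The erythroid sums were mostly Car2 (264 to 345 against 331 to 510). The part of these markers in the globin values was not tested.

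Whether the microRNA and the hairpin differed from each other was read from miR-125b against shArid3a, which shares the miR-125b libraries with the comparison above. None of the 6 globin genes was called by edgeR, against 1.35% of 14004 genes, with 1 globin gene and 2033 of all genes at an unadjusted p under 0.05. That gene was Hbb-bs, at 17.7, 49.4 and 62.3 CPM against 116 and 189 in shArid3a, with no overlap and a log2 difference of −1.82 (SE 0.46, edgeR adjusted p = 0.0912). With replicate number as a block it was called (−1.94, edgeR adjusted p = 0.0111), at 1 of 6 globin genes against 1.82% of all genes, and DESeq2 also called it alone, against 5.26% of the genes fitted, as did edgeR with no filter on low counts, against 3.3% of all genes. Hba-a1 was at 54.8 ± 29.4 CPM in miR-125b (SD, n = 3) and 53.9 ± 0.373 in shArid3a (SD, n = 2). Its log2 difference was 0.02, with an approximate 95% interval from −0.69 to 0.74. Libraries did not overlap for Hbb-bs, Hba-a2 and Hbb-bh1, as for 29.8% of all genes, and Hba-a2 (−0.87, edgeR adjusted p = 0.439) and Hbb-bh1 (0.99, edgeR adjusted p = 0.521) had opposite signs. Hbb-bt (−0.97) and Hbb-y (−0.86) overlapped.

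**Figure D2:**
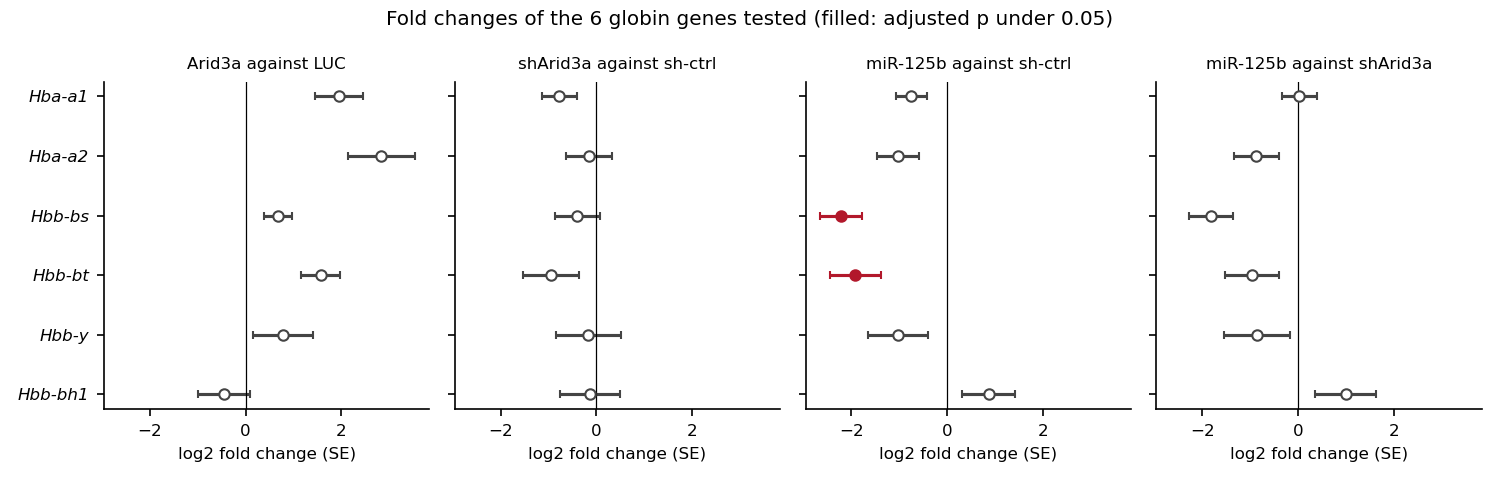
Each panel plots the log2 fold change (horizontal axis) with its standard error for the 6 globin genes tested in 1 comparison, where Arid3a stands for the libraries so labelled. Filled points, Hbb-bs at −2.21 and Hbb-bt at −1.92 in miR-125b against sh-ctrl, passed an adjusted p of 0.05.

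Shares within the globin counts need no scaling between libraries. Each of 5 shares was compared in the 4 contrasts by an exact two-sided permutation test over libraries. With these group sizes no p can go below 0.1, and the lowest of the 20 adjusted p-values was 0.4. Intervals given for single libraries are 95% Wilson intervals and cover counting error only.

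The embryonic share of beta-like counts (Hbb-y and Hbb-bh1 of the 4 beta-like genes) was 9.91% (7.88 to 12.4), 3.83% (3.07 to 4.75) and 8.34% (7.41 to 9.37) in miR-125b. In sh-ctrl it was 2.60% (2.22 to 3.03), 1.68% (1.38 to 2.05) and 0.863% (0.720 to 1.03). All miR-125b libraries lay above all controls, at 7.36% ± 3.16 against 1.71% ± 0.868 (SD, n = 3 each; exact permutation p = 0.1, adjusted 0.4). The 2 shArid3a libraries were at 1.83% and 1.84%, inside the sh-ctrl range. LUC, at 3.58% ± 1.16, and the libraries labelled Arid3a, at 2.71% ± 0.923 (SD, n = 3 each; exact permutation p = 0.3), overlapped.

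The alpha-like share of all globin counts was 51.8%, 64.9% and 63.2% in the libraries labelled Arid3a and 35.3%, 46.5% and 38.4% in LUC. The groups did not overlap (exact permutation p = 0.1, adjusted 0.4). In miR-125b replicate 1 stood alone at 80.9% (79.5 to 82.1), with the other libraries at 42.4% and 32.5%. The sh-ctrl libraries were at 36.4%, 28.7% and 27.0%, and shArid3a at 31.4% and 21.6%. Thus the miR-125b group overlapped sh-ctrl, and its spread rested on the library in which Hbb-bs was lowest.

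The split between the copies can depend on how shared reads were counted. Hba-a2 gave 2.07% to 8.44% of adult alpha counts in the 17 libraries. It averaged 7.14% ± 1.29 in the libraries labelled Arid3a and 4.16% ± 1.73 in LUC (SD, n = 3 each; exact permutation p = 0.1, adjusted 0.4). Hbb-bt gave 5.56% to 16.3% of adult beta counts in the 14 Gata1s libraries. Within these it was 13.1% ± 2.87 in the libraries labelled Arid3a against 7.64% ± 1.40 in LUC (SD, n = 3 each; exact permutation p = 0.1, adjusted 0.4), with no overlap.

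In WT the adult beta split was the opposite one. Hbb-bt gave 88.7% (86.6 to 90.4), 82.4% (79.2 to 85.2) and 87.0% (84.4 to 89.3) of adult beta counts there, a mean of 86.0% ± 3.25 (SD, n = 3). In counts, WT had 946, 510 and 631 for Hbb-bt and 121, 109 and 94 for Hbb-bs. The alpha copies showed no such change, with Hba-a2 at 5.78%, 4.23% and 3.06% of adult alpha counts in WT. Genotype, second transgene, doxycycline and table all differ between WT and the other groups and cannot be told apart, and the WT table also lists another number of genes (47643). WT cells also carried far more of the neutrophil and monocyte precursor markers, at 11505 to 15716 CPM summed against 5.61 to 146 in the Gata1s libraries, and of macrophage markers, at 103 to 130 against at most 1.37.

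**Figure D3:**
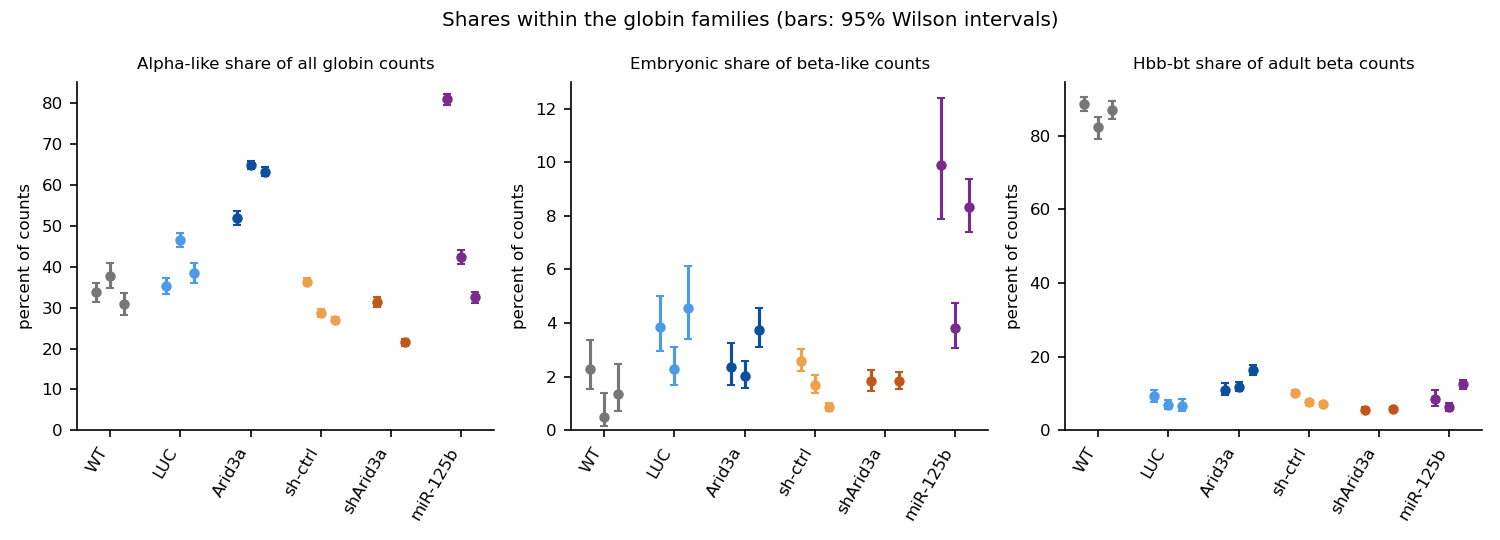
The panels plot, in percent of counts, the alpha-like share of all globin counts, the embryonic share of beta-like counts and the Hbb-bt share of adult beta counts, with a point per library and 95% Wilson intervals. The miR-125b libraries stand above sh-ctrl in the embryonic share, and WT at 82.4% to 88.7% stands apart from 5.56% to 16.3% in the Hbb-bt share.

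Known regulators of the globin genes were followed as a list of 30 genes, of which 27 were tested. In miR-125b against sh-ctrl 6 were called lower and 1 higher (median log2 difference −0.22). Of all genes, 24.4% were called and 12.2% were called lower, so the share of the 27 called in either direction was near that background. Only 4 of those called lower are named below, and the gene called higher is not named. Klf3, a repressor that binds the CACCC motif, was at 2.48, 4.49 and 4.95 CPM against 12.7, 20.4 and 23.8, with no overlap and a log2 change of −2.25 (SE 0.33, edgeR adjusted p = 0.00529). Nr2c2, which encodes TR4, part of a complex that represses embryonic globin genes, was at 4.01, 5.45 and 4.55 against 19.2, 24.5 and 26.2, with a log2 fold change of −2.32 (edgeR adjusted p = 0.00805). Lin28b, an RNA-binding protein of fetal blood cells, was at 12.1, 17 and 10.7 against 22.3, 41.8 and 38.3, with a log2 fold change of −1.37 (edgeR adjusted p = 0.00858). Zbtb7a, a repressor of fetal-type globin genes, fell by 0.79 on the log2 scale (edgeR adjusted p = 0.0102). In each of these 4 genes all miR-125b libraries lay below all sh-ctrl libraries.

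Other regulators with a known part in globin switching did not pass the test in miR-125b. Bcl11a, a repressor of embryonic and fetal globin genes, had a log2 difference of −0.38 (edgeR adjusted p = 0.425). Klf1, the activator that binds CACCC in adult beta promoters, was at −0.86 (edgeR adjusted p = 0.131), and Gata1 at −0.47 (edgeR adjusted p = 0.162). Myb, a progenitor factor, was at 0.47 (edgeR adjusted p = 0.194), Sox6, a partner of Bcl11a, at −0.04 (edgeR adjusted p = 0.921), and Nfe2, a factor that binds the beta enhancers, at −0.33 (edgeR adjusted p = 0.167). Against shArid3a, Klf3 (−1.81) and Lin28b (−1.34) were called lower in miR-125b, 2 of 27, beside 1.35% of all genes. In the libraries labelled Arid3a and in shArid3a none of the 27 was called, against 0% and 0.0857% of all genes. Their median log2 differences were 0.05 and −0.12. Klf1 had a log2 difference of 0.76 in shArid3a (edgeR adjusted p = 0.288) and −0.30 in the libraries with the transgene label (edgeR adjusted p = 0.50).

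**Figure D4:**
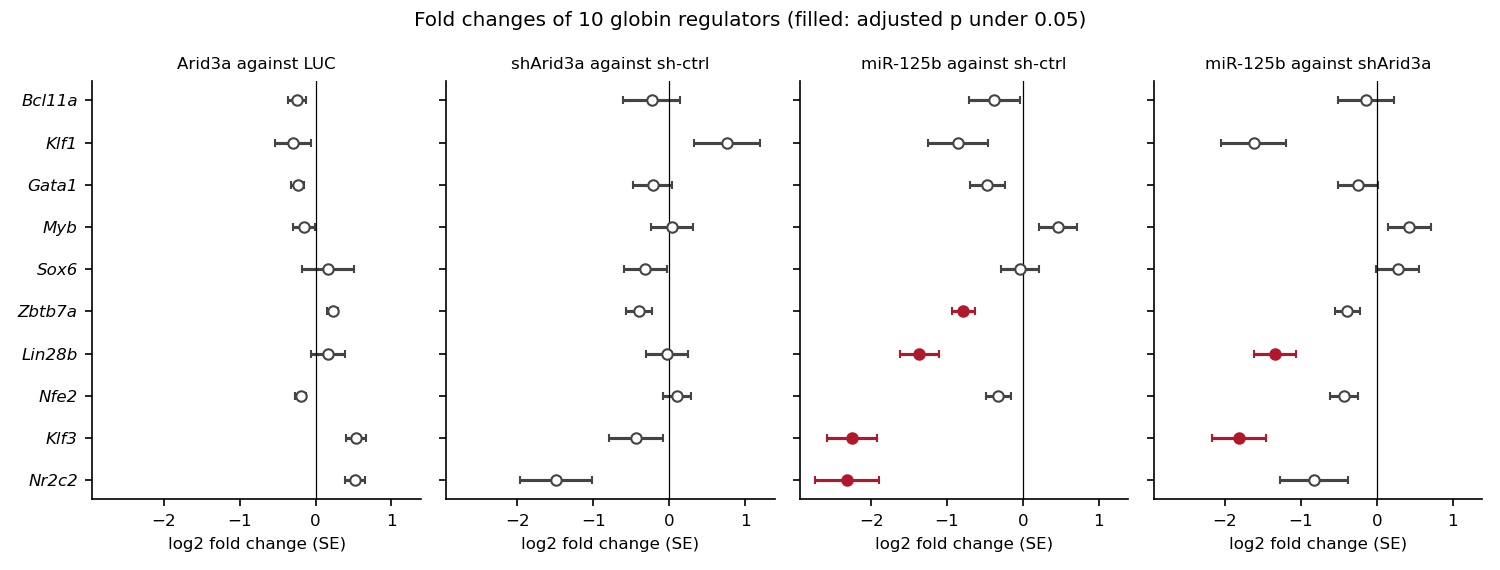
Each panel plots log2 fold changes (horizontal axis) with standard errors for 10 globin regulators in 1 comparison, where Arid3a stands for the libraries so labelled. Filled points passed an adjusted p of 0.05: Klf3, Nr2c2, Lin28b and Zbtb7a in miR-125b against sh-ctrl, and Klf3 and Lin28b against shArid3a.

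Haem supply and red cell structure, which accompany globin in red cells, were followed in the same way. Of 22 haem and iron genes 21 were tested in miR-125b against sh-ctrl, and 5 were called lower and 3 higher (median log2 difference −0.05), beside 24.4% of all genes called. Cpox, an enzyme late in haem synthesis, was at 31.7, 31.9 and 32.4 CPM against 124, 84.7 and 142, with a log2 fold change of −1.87 (edgeR adjusted p = 0.00548). Fech, which inserts iron into haem, fell by 0.71 on the log2 scale (edgeR adjusted p = 0.00648), while Alad, an early enzyme, had a log2 fold change of 0.69 (edgeR adjusted p = 0.00909). Against shArid3a 3 of 21 were called lower, beside 1.35% of all genes called, among them Cpox (−2.09) and Fech (−0.66). Of 28 genes of the red cell membrane and late maturation, 25 were tested against sh-ctrl, and 5 were called lower, among them Epb41, which encodes a membrane skeleton protein (−0.76), and Sptb, a spectrin gene (−1.43), and 1 higher, with a median of −0.38. These 6 of 25 stand beside 24.4% of all genes called, a share near that background. None of these genes was called in the libraries labelled Arid3a (22 and 24 tested) or in shArid3a (21 and 25 tested). Of all genes, 0% and 0.0857% were called there.

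Of 9 further globin-family genes 7 were listed and only Hbq1b, a theta-type alpha-like gene, was abundant enough to test. It was at 1.61 ± 1.02 CPM in the libraries labelled Arid3a and 0.384 ± 0.222 in LUC (SD, n = 3 each), a log2 difference of 2.04 (edgeR adjusted p = 0.171). It had log2 differences of −1.27 in shArid3a and 0.37 in miR-125b, both with sh-ctrl, and was called in no comparison.

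Genes with a pattern most like the globins were named over the 14 Gata1s libraries, by Pearson's r between log2 CPM centred within each table. For the summed adult globins these were Prkci (r = 0.93), Podxl (0.92), Ankrd46 (0.91), Pdcl (0.90) and Atp2c1 (0.88), with r of 0.88, 0.87, 0.84, 0.85 and 0.80 without the 2 farthest libraries. An absolute r above 0.5, of either sign, was found for 47.5% of the 8458 genes compared. A strong correlation with the adult globins, like or opposite, was thus common in these libraries. For the summed embryonic globins the leading genes were Hyou1 (0.80), Ggt5 (0.80), Magt1 (0.77) and Zfp992 (0.74), with r of 0.68, 0.78, 0.59 and 0.84 without the 2 farthest libraries. Only 3.54% of genes passed the same absolute r. These correlations are descriptions over libraries that share groups and depth.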

How the data were processed

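The authors deposited raw counts per gene in 3 tables, with no normalization. Per the submitters' processing notes, fastp, HISAT2 2.0.5 and featureCounts were used with build mm10. Strand use and the annotation release are not given in the sources used here. The members and lists were chosen with earlier results of these data known. Tables were joined by Ensembl identifier. Tests used edgeR 4.0.16 in R 4.3.3 (TMM, filterByExpr by group, quasi-likelihood, Benjamini-Hochberg over all genes tested), 1 fit per table, and DESeq2 1.42.0 as an alternative. Hba-x did not pass the filter. Standard errors were derived from the F statistics. They gave approximate 95% intervals of log2 differences by a normal quantile, which are too narrow with so few libraries. A count of 0 allows up to 3 counts. Genes named beside the members were, in each list, at most 4 with the lowest adjusted p plus 8 globin regulators, and the 5 genes most correlated with the adult and with the embryonic sum (mean log2 CPM of at least 3). Some genes that meet this rule are not reported here. In simulated data 100% of 4-fold changes were recovered for the libraries labelled Arid3a against LUC (196 of 196 genes). For shArid3a against sh-ctrl the share was 89.9% (178 of 198). The simulation gave every gene the same spread and no deviating library. It checks the code and does not give the power in the real libraries. Deviations of libraries with the same replicate number had positive r in all 7 pairs of sh-ctrl, shArid3a and miR-125b (0.15 to 0.43). Pairs of unlike number reached 0.36 (sh-ctrl 2 with shArid3a 3) and 0.21 (sh-ctrl 3 with miR-125b 2). Among LUC and the libraries labelled Arid3a the 3 pairs of like number had r from 0.0084 to 0.36. There LUC 3 with replicate 1 of the libraries labelled Arid3a reached 0.20. Whether numbers pair libraries is thus uncertain, and the main fits did not use them. Alternatives were other scalings, filters, summed copies, leaving out each library and a replicate block.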

Additional observations from a re-analysis of the deposited data

Results flagged for a closer look

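The WT libraries enter no tested comparison, and their adult beta split lay outside that of the controls. Hbb-bt gave 86.0% of adult beta counts in WT on average (82.4% to 88.7%), where the 6 control libraries of the other tables (LUC and sh-ctrl) had 6.70% to 10.1%. All 3 WT libraries lay above all 14 Gata1s libraries. The difference was not tested, and genotype, transgene, doxycycline and table cannot be told apart in it. No group has 4 or more libraries, so single libraries were not screened for distance from their group.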

How the results depend on the processing

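Of 349 alternative values for the 24 fold changes of single globin genes, 325 kept their sign and their side of the threshold. A missing adjusted p, as for Hbb-y and Hbb-bh1 under DESeq2 in the libraries labelled Arid3a, was counted as not called. DESeq2 called 3 globin genes in the libraries labelled Arid3a and 1 in miR-125b against shArid3a. With no filter on low counts 1 was called in shArid3a (Hba-a1, −0.78, edgeR adjusted p = 0.0297), 1 in miR-125b against shArid3a (Hbb-bs) and 3 against sh-ctrl, with Hba-a1 added. With near-identical copies summed, 1 of 4 was called in miR-125b against sh-ctrl, where the main fit called 24.4% of all genes. The call fell on an adult sum, as Hbb-y and Hbb-bh1 were called in no alternative there. In the libraries labelled Arid3a the log2 difference was 2.002 for the summed alpha copies (edgeR adjusted p = 0.0999). For the summed beta copies it was 0.774 (edgeR adjusted p = 0.190). In shArid3a these were −0.749 and −0.434 (edgeR adjusted p = 0.226 and 0.591). With the replicate block, 1 was called in miR-125b against shArid3a, 3 against sh-ctrl, and none in shArid3a or in the libraries labelled Arid3a. The block changed no other call of a globin gene, and whether replicate numbers pair libraries is uncertain. Leaving out 1 library gave 0 to 4 calls in the libraries labelled Arid3a, 1 to 4 in miR-125b against sh-ctrl, and 0 in the other comparisons. Leave-one-out log2 differences with both signs were those of Hbb-y (−0.86 to 0.31), Hbb-bh1 (−0.51 to 0.10) and Hbb-bs (−0.79 to 0.0059) in shArid3a, and of Hba-a1 in miR-125b against shArid3a (−0.51 to 0.25). The sign turned without sh-ctrl replicate 1 (Hbb-y, Hbb-bh1), sh-ctrl replicate 3 (Hbb-bh1, Hbb-bs), shArid3a replicate 1 (Hbb-y) or miR-125b replicate 1 (Hba-a1). Hba-a1 in miR-125b against shArid3a was −0.0016 with library totals. The cause was not tested.

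Of 130 alternative values for the 20 differences in shares, 122 kept their sign, 5 reversed it and 3 were 0. Their size was not compared with a spread. In percentage points, shares kept their sign in all leave-one-out values except these ranges: embryonic of beta-like in shArid3a −0.306 to 0.561, alpha-like of all globin in shArid3a −9.12 to 0.665, Hbb-bt of adult beta in miR-125b against sh-ctrl −0.887 to 2.20, and Hba-a2 of adult alpha in miR-125b against sh-ctrl −1.43 to 0.219. For Hba-x of alpha-like they were 0 to 0.0555 in the libraries labelled Arid3a, −0.0302 to 0 in shArid3a, −0.0201 to 0.0117 in miR-125b against sh-ctrl and 0 to 0.0175 against shArid3a. Depth limits Hba-x in all libraries, and Hbb-y and Hbb-bh1 in most.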
